A study of Mus musculus with 24 samples.

Results

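Brain vessels of 6 male APP/PS1 mice were compared with those of 6 male WT mice, which makes 12 of the 24 libraries of the study and covers all 13738 genes with values. The members were chosen by genotype and sex in the labels. The APP group (genotype APP/PS+ in the labels) carries the transgenes of an amyloid-depositing Alzheimer's disease model, and the sources used here do not name the promoter, strain or clone of the transgenes. All mice were 9 to 11 months old, and all vessels were captured with magnetic beads against CD31 (Pecam1), an adhesion protein of endothelial cells. The other 12 libraries, from APP and WT females, entered the fit so that all groups shared 1 estimate of the spread. The question was how the vessels of males with amyloid pathology differ from those of males without it.

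The APP males bear library names of 2 styles, and they are kept apart below. Libraries A1, A2, A3 and A4 have short names, as do all 6 WT libraries (W1 to W6). Libraries A3172 and E7967 have long names. The labels do not say what the style stands for. No WT male has a long name, so for A3172 and E7967 the name style and the genotype cannot be told apart.

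A brain capillary is a tube of endothelial cells sealed by tight junctions, wrapped by pericytes (smooth muscle cells on larger vessels), and covered by the endfeet of astrocytes. Capture with CD31 beads enriches whole vessel fragments, so RNA of the attached cells comes along. In mice that deposit amyloid, microglia, the resident immune cells of brain tissue, gather at plaques and turn on a characteristic set of genes, and amyloid also collects in vessel walls.

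Recovered totals were 56.88 to 68.14 M reads in A1 to A4, 64.92 to 66.36 in A3172 and E7967, and 55.12 to 69.24 in WT. Pecam1 lay between 1230 and 1830 CPM (reads of a gene scaled by the library's total) in all 12 libraries. Cldn5, the main tight junction claudin of brain endothelium, lay between 1220 and 2390 CPM. RNA of other cells was present in every library, since Csf1r of microglia ranged from 462 to 2620 CPM, Slc1a2 of astrocytes from 41.5 to 886, and Acta2 of smooth muscle was at 186 or more. The Y-linked genes Ddx3y, Kdm5d, Eif2s3y and Uty were present in all 12 libraries and Xist was at 1.41 CPM or less. App and Prnp did not pass the test between the genotypes (log2 fold changes -0.02 and -0.31, adjusted p = 0.92 and 0.074), so they give no check of the genotype labels.

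Several libraries stood apart. A3 had the lowest summed level of the 14 homeostatic microglial markers (3370 CPM, against 7220 to 10300 in A1, A2 and A4) and the highest of the 9 red cell and platelet markers (2290 CPM, against 339 to 939). A2 had the highest levels of MHC class II genes, with H2-Aa at 417 CPM against 29 to 59.4 in the other 5 APP libraries. W4 had the highest sums of WT for astrocyte, oligodendrocyte and neuron markers.

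Over all 6 APP males, 704 genes were higher (5.12% of those tested) and 1262 lower (9.19%) than in WT at a Benjamini-Hochberg adjusted p under 0.05 in limma. The median log2 fold change over all genes was -0.02. All fold changes are differences of mean log2(CPM + 1), so they understate the changes of low genes. For A1 to A4 against WT, 824 genes were higher (6.00%) and 2263 lower (16.5%). For A3172 and E7967 against WT, 546 were higher (3.97%) and 309 lower (2.25%), or 855 in all (6.22%). The effect of genotype differed between males and females for 969 genes (7.05%). Of these, 291 (2.12%) had the higher male effect and 678 (4.94%) the lower one. WT females all have long names and WT males all short ones, so sex and name style cannot be told apart in these counts. These comparisons use the same 6 WT libraries, so they are set side by side and not counted as repeats of each other. The split of calls between higher and lower moved with the scaling: higher genes made up 26.7% of the calls in A1 to A4 as deposited and 43.9% after trimmed-mean scaling, and 63.9% and 46.3% in A3172 and E7967. The calls for A3172 and E7967 also rested on both libraries, since E7967 alone gave 12 higher and 16 lower genes, and A3172 alone gave 305 and 171. Of the named genes with a call, 94 of 116 over all males, 113 of 132 in A1 to A4, 9 of 63 in A3172 and E7967 and 17 of 69 between the sets kept it whichever male library was left out.

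Microglial genes linked to plaques rose in both sets. Of 29 measured genes of the plaque-associated microglial list, 23 rose and none fell over all 6 APP males, with a median log2 fold change of 1.32. In A1 to A4, 20 rose (median 1.07), and in A3172 and E7967, 22 rose (median 1.58). Every APP library lay above every WT library for 13 of the 29, where 1.51% of all genes did so. Cst7, an inhibitor of lysosomal cysteine proteases, was at 61.3, 83.2, 40.7 and 29.4 CPM in A1 to A4, at 123 and 97.8 in A3172 and E7967, and at 0.214 to 8.91 in WT. The groups did not overlap, and W4 was the highest WT library (log2 fold change 4.92, SE 0.48, adjusted p = 1.3e-06). Clec7a, a receptor for glucans, was at 30.3, 38.6, 12 and 13.4 CPM in A1 to A4, at 42.4 and 30.9 in A3172 and E7967, and at 0.464 to 2.9 in WT (a log2 fold change of 3.68 with SE 0.35, adjusted p = 9.3e-07). Itgax, an integrin chain of activated myeloid cells, was at 69.5, 66, 21.8 and 23.9, then at 49.3 and 24.7, and at 2.56 to 5.25 CPM in WT (3.12, SE 0.31, adjusted p = 1.4e-06). For these genes A3 and A4 were the lowest APP libraries, and still above all WT libraries.

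**Figure D1:**
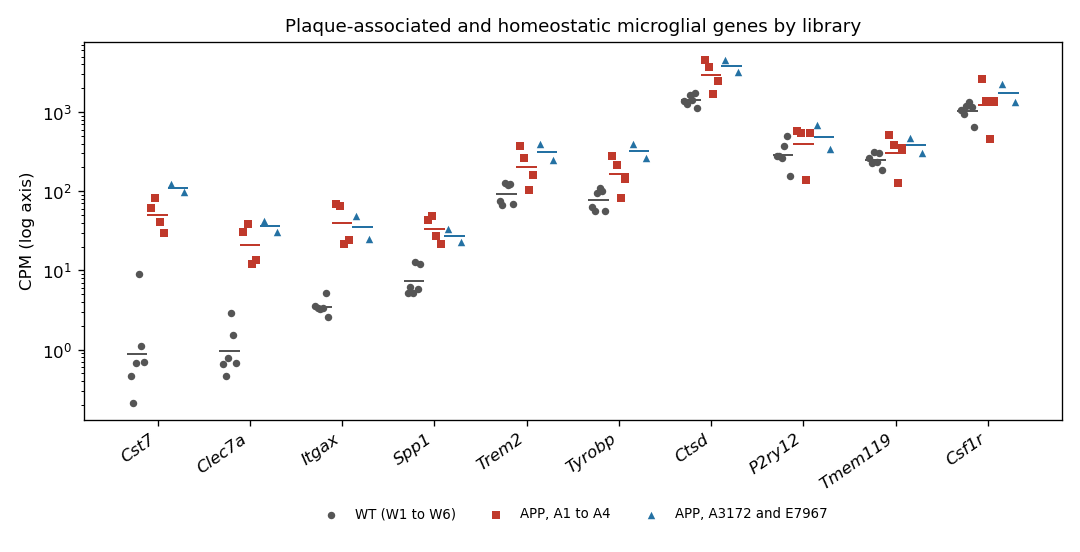
Levels of 7 plaque-associated genes (Cst7 to Ctsd) and 3 homeostatic microglial genes (P2ry12, Tmem119, Csf1r) in CPM on a log axis, 1 point per library, for WT (circles), A1 to A4 (squares) and A3172 and E7967 (triangles), with geometric means as lines. Cst7, Clec7a, Itgax and Spp1 do not overlap between the genotypes, and the homeostatic genes overlap.

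The receptor complex through which microglia sense lipids and amyloid rose more modestly. Trem2 was at 369, 263, 103 and 162 CPM in A1 to A4, at 399 and 248 in A3172 and E7967, and at 66.7 to 126 in WT (log2 fold change 1.32, adjusted p = 0.0075). Its signalling partner Tyrobp was at 279, 216, 81.7 and 143, then at 400 and 262, and at 55.9 to 111 CPM in WT (1.40, adjusted p = 0.005). For both genes only A3 lay within the range of WT. Spp1, the secreted protein osteopontin, rose by 1.96 (adjusted p = 0.00024) and Csf1, a growth factor for microglia, by 1.39 (adjusted p = 0.00051), both with no overlap. Lyz2, a lysozyme of myeloid cells, rose by 2.18 (adjusted p = 0.00015) and was at 44.1 to 120 CPM in A1 to A4, 150 and 213 in E7967 and A3172, and 13.3 to 37.1 in WT. Cd52, a surface glycoprotein of leukocytes, rose by 2.07 (adjusted p = 0.0015). Lyz2 and Cd52 were also higher in A3172 and E7967 than in A1 to A4 (log2 differences 1.2 and 1.58, adjusted p = 0.037 and 0.018). Hcar2, a receptor for ketone bodies and niacin, rose by 2.10, Pdcd1, the PD-1 receptor, by 2.16, and C3, the central complement component, by 1.99 (adjusted p = 0.00015, 3.5e-05 and 0.0021).

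The markers of resting microglia did not pass the test. Of 14 homeostatic genes none was called in the comparison of all 6 males, and their median log2 fold change was 0.43. P2ry12, a nucleotide receptor, was at 569, 539, 138 and 552 CPM in A1 to A4, at 682 and 342 in A3172 and E7967, and at 155 to 500 in WT (0.53, SE 0.34, adjusted p = 0.32). Csf1r had a log2 fold change of 0.43 (SE 0.30, adjusted p = 0.37) and Tmem119 one of 0.39 (SE 0.27, adjusted p = 0.36). Their summed level was 3370 to 10300 CPM in A1 to A4, 6470 and 10700 in E7967 and A3172, and 3580 to 6540 in WT. In bulk RNA, a change in the number of microglia attached to the vessels and a change in RNA per cell cannot be told apart.

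Lysosomal genes rose in both sets. Of 25 measured, 15 rose and none fell over all 6 APP males (median log2 fold change 0.50), with 12 higher and 1 lower (the mannosidase Manba) in A1 to A4 and 14 higher in A3172 and E7967, of which 1 remained called with E7967 alone. Ctsd, a protease abundant in microglia, rose by 1.18 (adjusted p = 0.0028) and Ctsl, a cysteine protease, by 0.69 (adjusted p = 0.0007). Among 25 genes of amyloid production and clearance, 2 subunits of gamma-secretase rose and 1 gene fell (median 0.07). Over all genes 5.12% rose and 9.19% fell, or 14.3% in all, so the number of calls does not set this list apart. Ncstn, nicastrin, was at 145 to 161 CPM in A1 to A4, 163 and 150 in A3172 and E7967, and 111 to 138 in WT (0.32, adjusted p = 0.00089). Aph1a rose by 0.23 (adjusted p = 0.016), and Clu, clusterin, a secreted chaperone made by astrocytes, fell by 0.47 on the log2 scale (adjusted p = 0.0086). Bace1, the beta-secretase, had a log2 fold change of -0.19 (adjusted p = 0.10), and Ide, a protease that degrades amyloid, one of 0.20 (adjusted p = 0.37).

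Cytokines and chemokines rose, with the larger list median in A1 to A4. Of 21 measured, 13 rose and none fell over all 6 APP males (median 1.17). In the direct test between the sets, 2 were higher and 2 lower in A3172 and E7967, and 17 were not called (median -0.18). In A1 to A4, 13 rose and 1, the alarmin Il33, fell (median 1.36), and in A3172 and E7967, 8 rose (median 0.69), none of which remained called with either library alone. Cxcl10, an interferon-inducible chemokine that draws T cells, was at 264, 257, 94.7 and 195 CPM in A1 to A4, at 73 and 66.8 in A3172 and E7967, and at 13.6 to 29.1 in WT. The 2 sets did not overlap with each other or with WT (log2 fold change 2.69 over all males, adjusted p = 2.8e-05; A3172 and E7967 minus A1 to A4 -1.42, adjusted p = 0.023). Cxcl2, a neutrophil attractant that is not in the list, was at 73.2, 105, 55.3 and 61.4, then at 13.8 and 26.4, and at 6.52 to 11.9 CPM in WT (2.39, adjusted p = 0.0004; between the sets -1.84, adjusted p = 0.008). Cxcl1, its neighbour on chromosome 5, was at 31.8 to 50.9 CPM in A1 to A4, 12 and 20.4 in A3172 and E7967, and 13.2 to 18.4 in WT (between the sets -1.30, adjusted p = 0.0051). Cxcl1 was thus apart from WT in A1 to A4 and overlapped with it in the other set. Il1b, the pro-inflammatory interleukin, was at 94.2, 88.6, 22.6 and 46.9, then at 39.7 and 63.7, and at 4.51 to 14.3 CPM in WT (2.34, adjusted p = 0.00012). Tnf rose by 1.99 and Ccl2, which recruits monocytes, by 1.79 (adjusted p = 0.00016 and 0.00017), both with no overlap. Tnfsf9, a ligand of the tumour necrosis factor family, rose by 2.0 (adjusted p = 0.00067). Among 20 genes of pattern recognition and NF-kB signalling, 8 rose and none fell, including the receptors Tlr2 (1.82, adjusted p = 0.00012) and Cd14 (1.67, adjusted p = 0.00044) and Tnfaip3, a brake on NF-kB (1.25, adjusted p = 0.0033).

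The interferon list moved unevenly. Of 33 measured genes, 8 rose and none fell over all males (median 0.28). In A1 to A4, 8 were higher and 2 lower (median 0.09), and in A3172 and E7967, 11 were higher and 1 lower (median 0.66), of which no higher call was left with E7967 alone and 4 with A3172 alone. Ifnb1, interferon beta itself, was at 41, 27.4, 6.27 and 14.1 CPM in A1 to A4, at 18.6 and 9.66 in A3172 and E7967, and at 0.26 to 1.75 in WT (3.19, SE 0.36, adjusted p = 1.1e-05). Isg15, a ubiquitin-like protein induced by interferon, was at 63, 63.7, 60.6 and 51.7, then at 61.6 and 61.9, and at 28.9 to 37.2 CPM in WT (0.85, SE 0.16, adjusted p = 0.0015). The 6 APP values of Isg15 lay close together whatever the name style. Ifit2, an inhibitor of translation of viral RNA, rose by 1.25 (adjusted p = 0.0018). Rsad2, an antiviral enzyme also called viperin, took the opposite course in the 2 sets, at 33.4 to 49.9 CPM in A1 to A4, 87.1 and 106 in A3172 and E7967, and 53.2 to 79.6 in WT. The difference between the sets was 1.26 (adjusted p = 0.0098). Its genomic neighbour Cmpk2 did likewise (0.87, adjusted p = 0.0082). Ifi44l was at 3.67 to 11.2 CPM in A1 to A4 and at 0.857 to 1.82 in WT, and no read of it was seen in A3172 and E7967, where a count of 0 allows up to 3 reads. In females Ifi44l averaged 0.00561 CPM in WT and 13.3 in APP (SD 0.00881 and 11.8). Its relative Ifi44 was at 31.4 to 51.8, then at 38.9 and 43.5, and at 15.1 to 29.4 CPM in WT.

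Promoters of 4 of these genes hold the letters of sites for the factors that act downstream of interferon or of Toll-like receptors. They are shown as the 250 bases before the annotated start (RefSeq, GRCm38.p6, the assembly of mm10). Cxcl1 and Cxcl2 are shown because both lay above WT in A1 to A4. Isg15 and Cxcl10 are the interferon-inducible genes with the smallest p among those with a match. Capitals mark GGGA, any base and TTTCC (an NF-kB site) in Cxcl1 and Cxcl2, and GAAA, any 2 bases and GAAA (an interferon-stimulated response element, ISRE) in Cxcl10 and Isg15, both strands searched.
Cxcl1, chr5:90890995-90891244 (plus strand): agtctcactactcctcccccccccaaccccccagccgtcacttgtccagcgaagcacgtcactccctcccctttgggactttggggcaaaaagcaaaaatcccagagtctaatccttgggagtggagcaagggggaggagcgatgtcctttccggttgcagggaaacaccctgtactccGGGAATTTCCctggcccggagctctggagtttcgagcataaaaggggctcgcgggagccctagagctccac
Cxcl2, chr5:90903649-90903898 (plus strand): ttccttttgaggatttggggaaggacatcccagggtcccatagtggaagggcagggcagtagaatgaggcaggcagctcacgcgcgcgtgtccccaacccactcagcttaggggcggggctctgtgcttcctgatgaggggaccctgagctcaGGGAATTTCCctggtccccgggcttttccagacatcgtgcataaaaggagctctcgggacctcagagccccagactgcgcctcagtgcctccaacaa
Cxcl10, chr5:92348890-92349139 (minus strand): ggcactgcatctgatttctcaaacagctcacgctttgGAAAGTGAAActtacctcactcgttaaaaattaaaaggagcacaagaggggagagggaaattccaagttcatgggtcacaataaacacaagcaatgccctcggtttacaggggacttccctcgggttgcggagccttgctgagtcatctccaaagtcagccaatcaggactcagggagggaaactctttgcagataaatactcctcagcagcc
Isg15, chr4:156200819-156201068 (minus strand): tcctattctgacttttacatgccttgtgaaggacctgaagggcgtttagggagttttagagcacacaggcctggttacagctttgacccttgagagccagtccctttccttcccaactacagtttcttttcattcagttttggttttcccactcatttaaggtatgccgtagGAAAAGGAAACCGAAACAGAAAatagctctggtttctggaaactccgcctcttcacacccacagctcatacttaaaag
The NF-kB letters occurred in 0.356% of the 32851 promoters and in 2 of the 10 cytokine and NF-kB genes searched. The ISRE letters occurred in 2.98% of promoters and in 3 of the 6 interferon genes searched, with 3 overlapping matches in Isg15. A match describes the sequence and does not show that a factor binds there.

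Antigen presentation genes summed to 4370 to 9410 CPM in A1 to A4 (highest in A2), 6380 and 6770 in A3172 and E7967, and 3480 to 4090 in WT, with no overlap. All 20 measured had a log2 fold change above 0 over all males (median 0.50), but only Cd74, the invariant chain of MHC class II, was called over all males, at 1860, 314 and 277 CPM in A2, A3 and A4 (A1 lay between A2 and A3), at 258 and 165 in A3172 and E7967, and at 61.1 to 122 in WT (2.13, SE 0.68, adjusted p = 0.039). The genotypes did not overlap, but A2 lay over 4 times above any other library, and the call was lost when any 1 of 9 of the 12 libraries was left out (highest adjusted p = 0.11). H2-K1, an MHC class I chain, was above WT in every APP library (1050 to 1580 against 803 to 939 CPM) and had a log2 fold change of 0.56 (adjusted p = 0.071).

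Mural cell markers were lower in A1 to A4. Of 18 pericyte markers 17 fell there (median log2 fold change -1.08), and in A3172 and E7967 none fell and 1 rose, the glutamyltransferase Ggt1 (median 0.04). Between the sets 14 of the 18 were higher in A3172 and E7967 (adjusted p under 0.05, 11.6% of all genes), with a median difference of 1.13, beside 0.15 over all genes. Over all 6 APP males 7 fell, a count that was 15 without A3172, 3 without A2 or without A4, 4 without W4 and 2 in a fit of the male libraries alone. Pdgfrb, the receptor that keeps pericytes on vessels, was at 62.6, 44.2, 60.6 and 39.4 CPM in A1 to A4, at 142 and 89.8 in A3172 and E7967, and at 88.4 to 135 in WT. Rgs5, a regulator of G-protein signalling, was at 27.9, 38.6, 44.6 and 26.2, then at 78.8 and 70.6, and at 66.2 to 89.3 CPM in WT. Both genes fell in A1 to A4 (by 1.14 and 1.13 on the log2 scale, adjusted p = 0.00011 and 1.7e-05), and differed by 0.00 from WT in the other set. Vtn, vitronectin, was at 34.2 to 81.2 CPM in A1 to A4, 277 and 175 in A3172 and E7967, and 107 to 196 in WT. Kcnj8 and Abcc9, the 2 parts of the pericyte potassium channel, differed between the sets by 1.95 and 1.81 (adjusted p = 0.00066 and 0.0011).

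Smooth muscle genes were lower in A1 to A4 as well. Of 19 measured, 16 fell in A1 to A4 (median -0.97), 1 (Mylk, myosin light chain kinase) fell in A3172 and E7967 (median -0.37), and 13 fell over all 6 APP males (median -0.74), or 8 without A4. Des, desmin, was at 28.3, 18.8, 20.6 and 16.7 CPM in A1 to A4, at 50.7 and 35.7 in A3172 and E7967, and at 30.4 to 81.1 in WT (over all males -1.04, adjusted p = 0.0048). Myocd, the transcriptional coactivator of the contractile genes, was at 2.41 to 4.12 CPM in A1 to A4, 5.15 and 3.8 in A3172 and E7967, and 5.68 to 11.7 in WT, with no overlap (-0.94, adjusted p = 0.0071). Acta2, smooth muscle actin, was lowest of WT in W2 (298 CPM) and highest in W3, and fell by 0.85 on the log2 scale over all males (adjusted p = 0.042, at most 0.11 with 1 library left out). Among 25 genes of vascular tone, 5 fell (3 without A2 or without A4) and 1 rose over all males. Ednra, the endothelin receptor of mural cells, was at 5.54 to 9.85 CPM in A1 to A4, 19.2 and 14.2 in A3172 and E7967, and 17.3 to 30 in WT (-1.08, adjusted p = 0.0016). Gucy1a1 and Gucy1b1, the 2 subunits of the nitric oxide receptor, fell by 0.98 and 0.68 on the log2 scale (adjusted p = 0.007 and 0.02), and the call of Gucy1b1 was lost without A2 or without A4 (highest adjusted p = 0.056). Kcnj2, an inward rectifier potassium channel of capillary endothelium, rose by 0.66 (adjusted p = 0.0061), at 36.6 to 51.2 CPM in APP and 19.5 to 35.6 in WT.

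**Figure D2:**
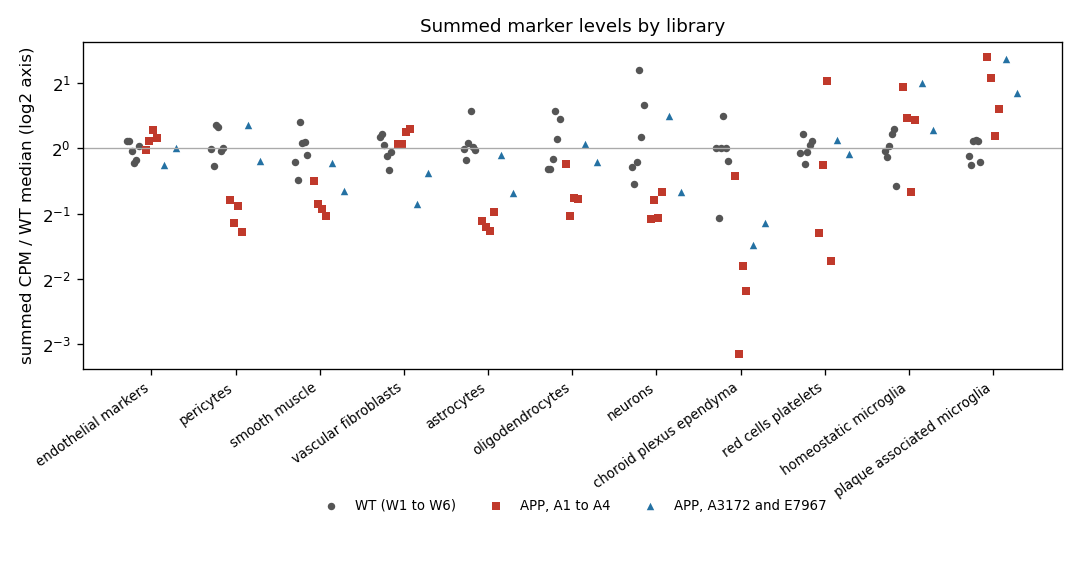
Summed CPM of 11 marker lists in each library, divided by the median of the 6 WT libraries (log2 axis), for WT (circles), A1 to A4 (squares) and A3172 and E7967 (triangles). Pericyte, astrocyte and smooth muscle sums of A1 to A4 lie below the WT median, and endothelial sums of all 3 sets lie around it.

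Most astrocyte genes fell in A1 to A4. Of 20 measured, 15 fell in A1 to A4 (median -1.92), 1 (Fgfr3) fell and 1 (Gfap) rose in A3172 and E7967 (median -0.49), and 16 fell over all males (median -1.38). Slc1a2, the main glutamate transporter of astrocytes, was at 41.5, 51.3, 75.4 and 114 CPM in A1 to A4, at 390 and 210 in A3172 and E7967, and at 467 to 886 in WT (over all males -2.36, SE 0.48, adjusted p = 0.0028). The 3 sets of libraries did not overlap. Slc6a11, a transporter that clears GABA, fell by 2.30 on the log2 scale over all males (adjusted p = 0.0028). Its log2 fold change was -3.09 in A1 to A4 and -0.71 in A3172 and E7967 (adjusted p = 8.4e-06 and 0.36). Aldoc, an aldolase of astrocytes, was at 9.19 to 20 CPM in A1 to A4, 108 and 56.4 in A3172 and E7967, and 67 to 199 in WT. Acsbg1, Mmd2, Ttyh1, Gpm6b, Scg3 and Cspg5, which are expressed in astrocytes or other glia, fell by 2.08 to 2.25 on the log2 scale over all males. Their log2 fold changes were -3.1 to -2.79 in A1 to A4. In A3172 and E7967 they were -0.71 to -0.53, with none called (adjusted p = 0.3 to 0.49). The differences between the sets were 2.13 to 2.57 (adjusted p = 0.0015 to 0.0046). Of 14 genes of the endfoot complex 9 fell over all males, 10 in A1 to A4 and none in A3172 and E7967. Kcnj10, the endfoot potassium channel, was at 9.68 to 16.5 CPM in A1 to A4, 39.1 and 20.3 in A3172 and E7967, and 48.9 to 99.2 in WT (-1.74, SE 0.31, adjusted p = 0.0011). Aqp4, the endfoot water channel, was at 1.26 to 2.2 CPM in A1 to A4, 13 and 7.25 in A3172 and E7967, and 6.05 to 15.6 in WT (over all males -1.28, adjusted p = 0.035, at most 0.088 with 1 library left out). Gfap, the filament protein of reactive astrocytes, was at 6.01 to 7.54 CPM in A1 to A4, 36.5 and 18.7 in A3172 and E7967, and 7.85 to 12.4 in WT (in A3172 and E7967 against WT 1.16, adjusted p = 0.046, and 0.55 without A3172).

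Markers of cells with no fixed place on the vessel wall moved alongside. The 15 neuron markers summed to 172 to 230 CPM in A1 to A4, 511 and 230 in A3172 and E7967, and 250 to 840 in WT. The 13 oligodendrocyte markers summed to 713 to 1240, then 1530 and 1260, and 1170 to 2160 CPM. The 11 choroid plexus and ependymal markers, led by Ttr, summed to 829 to 5480, then 2640 and 3320, and 3500 to 10400 CPM. Of these lists 13 neuron, 8 oligodendrocyte and 7 choroid plexus genes fell in A1 to A4, and none in A3172 and E7967. Without A2 the counts for A1, A3 and A4 were 5 oligodendrocyte and 1 choroid plexus genes. Kif5a, a kinesin of axons, was at 8.53 to 20.7 CPM in A1 to A4, 217 and 58.1 in A3172 and E7967, and 43.4 to 439 in WT, and its call over all males (-2.30, adjusted p = 0.039) was lost when any 1 of 8 libraries was left out. Igfbp2, an insulin-like growth factor binding protein abundant in choroid plexus and meninges, was at 4.97 to 41.7 CPM in A1 to A4, 30.3 and 37.8 in A3172 and E7967, and 44.5 to 117 in WT (-2.11, adjusted p = 0.0051). The part of attached brain tissue in the falls of pericyte, smooth muscle and astrocyte genes was not tested.

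General endothelial markers changed little beside these lists. Of 20 endothelial markers 2 rose over all males (median 0.01). In A1 to A4, 4 rose and none fell (median 0.10), and in A3172 and E7967 none rose and 2 fell (median -0.09). Kdr, the main receptor of VEGF, was at 703 to 926 CPM in A1 to A4, 683 and 675 in A3172 and E7967, and 504 to 723 in WT (0.33, SE 0.10, adjusted p = 0.026). Slco1a4, an organic anion and thyroid hormone transporter of the barrier, was at 1920 to 2810, then 1900 and 2370, and 1500 to 2060 CPM in WT (0.39, SE 0.12, adjusted p = 0.036). Both calls depended on single libraries: that of Kdr was lost without A3, W3, W4 or W5, and that of Slco1a4 without any 1 of 8 libraries (highest adjusted p = 0.071 and 0.079). Of 18 capillary and venous endothelial genes, 1 rose and 3 fell over all males, and 4 rose and 4 fell in A1 to A4. Of 18 arterial genes none was called over all males, and 3 rose and 2 fell in A1 to A4. Over all genes 6.00% rose and 16.5% fell in A1 to A4. In A3172 and E7967, 1 capillary or venous gene rose and 2 arterial genes fell. None of 20 junction genes was called by limma over all males, while 2 fell in A1 to A4 and 1 in A3172 and E7967. The log2 fold changes of Cldn5, Ocln and Tjp1 were 0.19, -0.08 and -0.08 (SE 0.15, 0.08 and 0.08).

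Endothelium takes up cargo through caveolae, flask-shaped pits of its membrane. Among 20 genes of transcytosis and caveolae 6 fell, 1 rose and 13 were not called over all males (median -0.02). Cavin1, a coat protein of caveolae, was at 708 to 858 CPM in A1 to A4, 706 and 768 in A3172 and E7967, and 786 to 1030 in WT (-0.32, SE 0.08, adjusted p = 0.0089). Cavin3 was at 67.1 to 85.1, then 63 and 75.6, and 77.8 to 104 CPM in WT (-0.31, adjusted p = 0.0046), and Cavin2 and Ehd2 fell by 0.29 and 0.33 on the log2 scale (adjusted p = 0.038 and 0.036, at most 0.094 and 0.09 with 1 library left out). Cav1, caveolin itself, had a log2 fold change of -0.04 (SE 0.10). Insr, the insulin receptor, was at 287 to 321 CPM in A1 to A4, 212 and 276 in A3172 and E7967, and 338 to 398 in WT, with no overlap (-0.39, SE 0.08, adjusted p = 0.0029). In A1 to A4 alone 5 genes of the list fell, and 1 after trimmed-mean scaling.

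Basement membrane collagen fell alike in both sets. Col4a1 was at 805, 886, 907 and 823 CPM in A1 to A4, at 790 and 959 in A3172 and E7967, and at 1120 to 1450 in WT (-0.59, SE 0.10, adjusted p = 0.00071). Col4a2, which shares a bidirectional promoter with it on chromosome 8 and forms the same network, was at 671 to 701, then 586 and 629, and 792 to 1130 CPM in WT (-0.56, SE 0.10, adjusted p = 0.00096). Both lay below WT in all 6 APP libraries, as 1.96% of all genes did, and the difference between the sets was 0.03 and -0.19 (adjusted p = 0.91 and 0.34). Nid1, a linker protein of the membrane, fell by 0.34 on the log2 scale (adjusted p = 0.0096). The other 18 of 21 matrix genes were not called. Of 15 coagulation and fibrinolysis genes, Plau (1.29, adjusted p = 0.0028) and Pros1 (0.24, adjusted p = 0.041, at most 0.11 with 1 library left out) were among those that rose. Plat, tissue plasminogen activator, was at 608 to 1080 CPM in A1 to A4, 672 and 986 in A3172 and E7967, and 1140 to 1500 in WT (-0.66, adjusted p = 0.0084), and Thbd, thrombomodulin, fell by 0.47 on the log2 scale (adjusted p = 0.016).

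**Figure D3:**
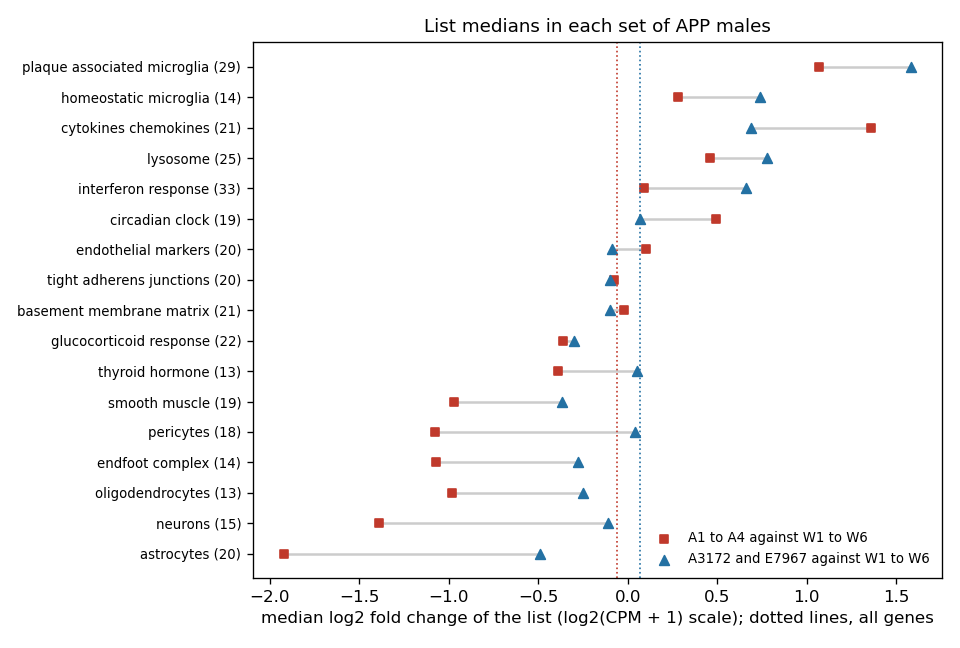
Median log2 fold change of 17 gene lists (number measured in brackets) in A1 to A4 (squares) and in A3172 and E7967 (triangles) against the same 6 WT libraries, with the medians of all genes as dotted lines. Plaque-associated microglial genes lie at 1.07 and 1.58, astrocyte genes at -1.92 and -0.49 and pericyte genes at -1.08 and 0.04.

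Clock genes were shifted in A1 to A4. The clock is a feedback loop in which Bmal1 with Clock or Npas2 turns on Per, Cry, Nr1d and PAR-bZIP genes through E-boxes, and Nr1d proteins repress Bmal1 and Npas2. Of 19 measured, 11 rose and 3 fell in A1 to A4 (median 0.49), 1 rose and 1 fell in A3172 and E7967 (median 0.07), and 6 rose and 3 fell over all males. Dbp, a PAR-bZIP factor, was at 63.3, 34.9, 99.9 and 53.1 CPM in A1 to A4, at 21.3 and 6.9 in A3172 and E7967, and at 3.17 to 8.48 in WT. A3172 lay between A1 to A4 and WT, and E7967 within WT (over all males 2.52, SE 0.43, adjusted p = 0.00086; between the sets -2.17, adjusted p = 0.0033). Ciart, a repressor of the loop, was at 63.2 to 112 CPM in A1 to A4, 27 and 29.8 in A3172 and E7967, and 18 to 33.9 in WT (between the sets -1.36, adjusted p = 0.00056). Per2 was at 52.2 to 104, then 14 and 14.5, and 17.4 to 42 CPM in WT, so that A1 to A4 lay above WT and the other set below it.

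Some other clock genes lay apart from WT in both sets. Nr1d2 was at 145 to 208 CPM in A1 to A4, 124 and 96.5 in A3172 and E7967, and 39.9 to 87.6 in WT (1.28, SE 0.17, adjusted p = 9.8e-05). Per3 was at 45.1 to 73.9, then 45.3 and 34.3, and 21.9 to 29.4 CPM in WT (0.90, SE 0.14, adjusted p = 0.00048). Npas2 was at 4.91 to 6.31, then 11 and 13.8, and 18.8 to 26.2 CPM in WT (-1.44, SE 0.20, adjusted p = 0.00011). None of these 3 genes overlapped between the genotypes, and for Npas2 the sets were also apart (1.03, adjusted p = 0.0025). Bmal1 was at 15.1 to 37 CPM in A1 to A4, 50.1 and 68 in A3172 and E7967, and 55.8 to 82.5 in WT, and Tef at 188 to 299, 125 and 94.8, and 72.4 to 120. Per1 and Clock had log2 fold changes of 0.04 and -0.08 (adjusted p = 0.92 and 0.56). The sources used here do not give the hour at which vessels were taken, and its part in these values was not tested.

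The promoters of Ciart and Per3 are shown because each holds several copies of a clock element, in the same window and build as above. Capitals mark the E-box CACGTG in Ciart and the D-box TTATGTAA, the site of PAR-bZIP factors, in Per3.
Ciart, chr3:95882229-95882478 (minus strand): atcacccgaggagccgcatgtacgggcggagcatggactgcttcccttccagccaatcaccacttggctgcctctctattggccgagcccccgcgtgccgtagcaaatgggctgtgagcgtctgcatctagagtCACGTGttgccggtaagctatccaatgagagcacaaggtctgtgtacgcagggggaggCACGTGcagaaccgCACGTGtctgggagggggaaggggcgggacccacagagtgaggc
Per3, chr4:151044666-151044915 (minus strand): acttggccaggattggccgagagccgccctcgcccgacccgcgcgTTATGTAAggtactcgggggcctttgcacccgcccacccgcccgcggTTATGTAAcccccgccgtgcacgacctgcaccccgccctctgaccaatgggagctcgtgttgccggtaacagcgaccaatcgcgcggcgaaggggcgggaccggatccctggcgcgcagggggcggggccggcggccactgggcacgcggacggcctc
The E-box letters occurred in 6.02% of all promoters and in 2 of the 7 clock genes searched, and the D-box letters in 0.819% and in 1 of 7.

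**Figure D4:**
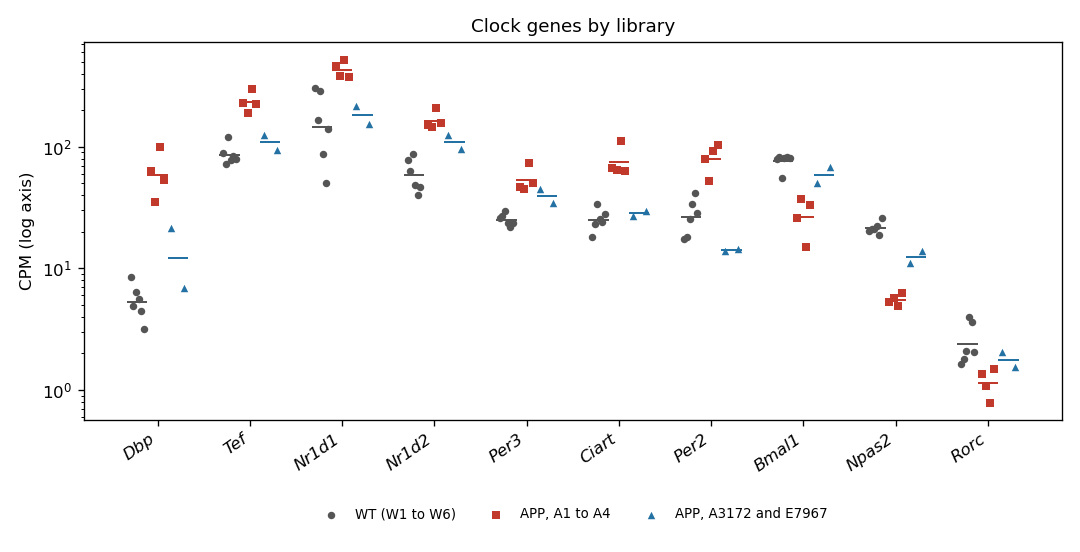
Levels of 10 clock genes in CPM on a log axis, 1 point per library, for WT (circles), A1 to A4 (squares) and A3172 and E7967 (triangles), with geometric means as lines. Nr1d2 and Per3 are above WT in both APP sets and Npas2 is below it, while Ciart and Per2 part the APP sets.

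Some genes that glucocorticoid hormone induces fell. Of 22 measured, 8 fell, 1 rose and 13 were not called over all males (median -0.33), with 8 lower in A1 to A4 and 4 in A3172 and E7967 (none with E7967 alone). Zbtb16, a zinc finger repressor and strong glucocorticoid target, was at 117, 49.7, 45.8 and 149 CPM in A1 to A4, at 17.1 and 34.2 in A3172 and E7967, and at 132 to 283 in WT (-1.95, SE 0.39, adjusted p = 0.0026). Here A3172 and E7967 lay farthest from the WT males (between the sets -1.67, adjusted p = 0.024). The WT females, all with long names, averaged 29.4 CPM and the APP females 21.5 (SD 15.6 and 8.52). The part of sex and name style was not tested. Hif3a was at 7.97 to 20.2, then 4.1 and 13.9, and 21.9 to 38.7 CPM in WT, with no overlap (-1.32, adjusted p = 0.0035). Fkbp5, a co-chaperone of the receptor, fell by 1.39 on the log2 scale (adjusted p = 0.0077), and Sgk1, a kinase, rose by 0.53 (adjusted p = 0.033, at most 0.093 with 1 library left out). Tsc22d3, another target, had a log2 fold change of -0.16 (adjusted p = 0.75), and Nr3c1, the receptor, one of -0.20 (adjusted p = 0.088).

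Genes of thyroid hormone handling held some of the largest falls. Of 13 measured, 6 fell and 2 rose over all males. Crym, which binds thyroid hormone in the cytosol, was at 0.0881, 0.0784, 0.258 and 0.141 CPM in A1 to A4, at 1.15 and 1.22 in A3172 and E7967, and at 8.99 to 13.9 in WT (-3.14, SE 0.52, adjusted p = 0.00069). Dio2, the enzyme that activates thyroid hormone in astrocytes, was at 0.778, 1.77, 1.34 and 2.5, then at 12.1 and 10.4, and at 18.5 to 47.5 CPM in WT (-2.69, SE 0.43, adjusted p = 0.00045). For both genes A1 to A4 were lowest, A3172 and E7967 next, and WT males highest, without overlap. The WT females, all with long names, averaged 1.02 and 8.51 CPM for Crym and Dio2 (SD 0.423 and 2.35). The APP females averaged 10.9 and 6.72 CPM (SD 14.3 and 4.38). The part of sex and name style in these values was not tested. Slc16a10, a transporter of the hormone and of aromatic amino acids, rose by 0.93 (adjusted p = 0.0023).

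Smaller groups moved as follows. Among 19 immediate early genes, 3 rose and 1 fell over all males. In A1 to A4, 7 rose and 1 fell (median 0.35), and in A3172 and E7967 1 rose and none fell (median -0.16). Between the sets 7 were lower in A3172 and E7967 (median -0.46), where 3.30% of all genes were. Over all males Egr2 rose (1.30, adjusted p = 0.00016) and was at 58.2 to 143 CPM in APP against 27 to 48.3 in WT. Egr3 and Nr4a3 rose by 0.94 and 0.78, and Npas4 fell by 0.73 on the log2 scale. Among 24 genes of the unfolded protein and heat shock responses 4 rose and none fell over all males. Over all genes 5.12% rose and 9.19% fell, or 14.3% in all. In A1 to A4, 8 of the 24 rose and 2 fell, beside 6.00% and 16.5% of all genes. In A3172 and E7967 none was called (median 0.01). Atf4 was at 282 to 344 CPM in APP against 237 to 277 in WT (0.31 over all males, adjusted p = 0.0026). Scd1, a fatty acid desaturase, was at 22.5 to 27.2 CPM in A1 to A4, 69 and 51.9 in A3172 and E7967, and 75.7 to 137 in WT (-1.39, adjusted p = 0.0025). Hmox1, which breaks down heme, was at 55.6 to 107, then 48.6 and 52.4, and 34.5 to 47.5 CPM in WT (0.80, adjusted p = 0.0036). Cyp2e1, an oxidising enzyme, was at 8.03 to 14.1, then 27.5 and 33, and 3.24 to 5.89 CPM in WT (1.60, adjusted p = 0.004). In females it averaged 31.2 CPM in APP and 31.1 in WT (SD 16.3 and 9.3). Rpl21 was among the largest falls (-2.49, adjusted p = 0.0098), but it has near-identical copies in the genome, so reads could be split between them, and A3172 (35.8 CPM) lay with WT (24.6 to 44.7).

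The 2 sets of APP males also differed from each other directly. With A3172 and E7967 set against A1 to A4, 1587 genes lay higher (11.6%) and 454 lower (3.30%), with a median of 0.15 over all genes. After trimmed-mean scaling the median was 0.02, with 698 higher and 748 lower. With E7967 alone in place of both, 118 were higher and 76 lower. For 90 genes both long-named libraries lay more than 1 log2 unit above all of A1 to A4, and for 26 more than 1 unit below. These genes were chosen by their values, so they are a description with no test. For 15 of the 90 and 13 of the 26, all 6 WT males lay between the sets. Rps3a1, a ribosomal protein gene with near-identical copies, was at 24.9 to 29.5 CPM in A1 to A4, 62.5 to 102 in WT and 149 and 150 in A3172 and E7967. Pianp, a neuronal receptor ligand, was at 31.5 to 44.7, 14.5 to 17.6, and 3.44 and 1.52 CPM in the same order, and Dsp, desmoplakin of desmosomes, at 65 to 109, 30.8 to 60.6, and 5.98 and 7.52. The WT females, all with long names, averaged 0.983 CPM for Pianp and 27 for Dsp (SD 0.411 and 26.7). For Pttg1 they averaged 59.4 CPM (SD 6.57), against a mean of 61.1 in A3172 and E7967. The part of name style in these values was not tested. Slc16a1, the lactate transporter of the barrier, was at 994 to 1650 CPM in A1 to A4 and 428 to 488 in WT, and at 375 and 417 in A3172 and E7967. Because Slc16a1 rose in 1 set only, its value over all 6 males (0.86, adjusted p = 0.055) describes neither set.

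A2 resembled A3172 and E7967 for some genes, most of them on chromosome 17. For 9 genes these 3 libraries lay more than 1 log2 unit below the other 9 males, and all 9 genes are on chromosome 17, which holds 707 of the genes tested. With A1, A3 or A4 in place of A2 there was no such gene. The 7 with a position lie between 8236043 and 36168537 (mm10), a span that includes the mouse MHC. Dnah8, a dynein heavy chain (chromosome 17, 30624354 to 30877365), was at 6.37 CPM in A2, 3.74 in A3172 and 5.99 in E7967, at 134, 87.5 and 163 in A1, A3 and A4, and at 68.4 to 101 in WT. H2-Q2, an MHC class I gene (35342242 to 35346762), was at 4.34, 2.03 and 3.68, at 20.8 to 53.2, and at 11.9 to 21.2 CPM in the same order. The WT females averaged 5.24 CPM for Dnah8 and 8.68 for H2-Q2 (SD 1.19 and 6.99). The APP females averaged 69.4 and 34.2 CPM (SD 70.3 and 28.5). H2-Ea, an MHC class II chain, had no read in A2, A3172 and E7967, against 7.25 to 13.4 CPM in A1, A3 and A4 and 1.96 to 7.11 in WT. The other 6 genes were Ccr6, H2-Bl, H2-T26, Gm8465, Gm10499 and 1700097N02Rik. Another 2 genes, Ccl6 on chromosome 11 and Ppfia4 on chromosome 1, were above the other males in the same 3 libraries. Near-identical copies are common among MHC genes, so reads of the H2 genes named here could be split. Dnah8 and Ccr6 are not MHC genes, and the cause of the pattern was not tested.

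**Figure D5:**
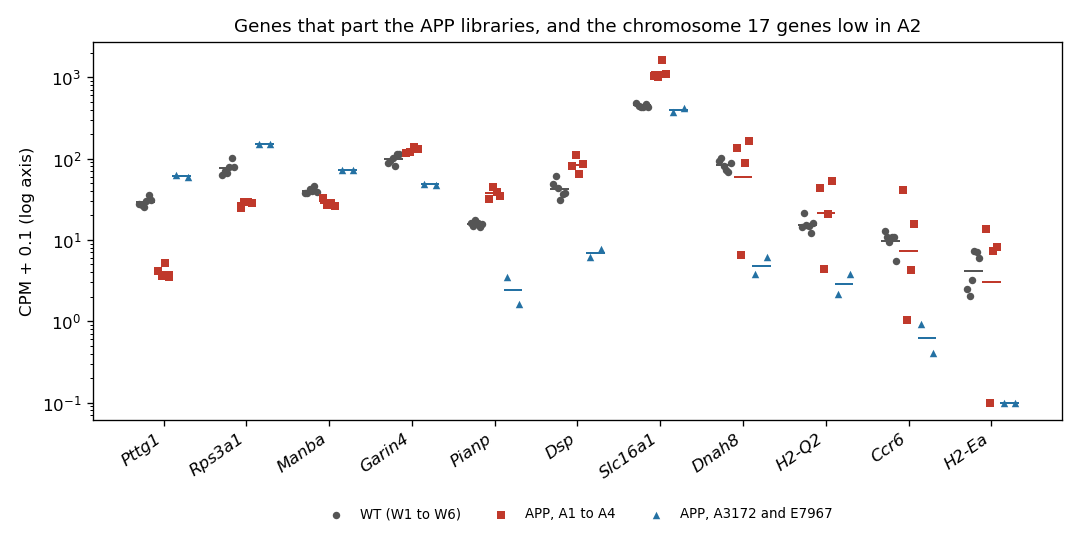
Levels of 11 genes as CPM + 0.1 on a log axis, 1 point per library, for WT (circles), A1 to A4 (squares) and A3172 and E7967 (triangles), with geometric means as lines. For Pttg1, Rps3a1, Manba, Pianp and Dsp the WT libraries lie between the APP sets, and for Dnah8, H2-Q2, Ccr6 and H2-Ea the square of A2 lies with the triangles.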

How the data were processed

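Per the labels' protocols, poly(A) RNA libraries of bead-captured brain vessels were made with a TruSeq kit and sequenced on an Illumina NextSeq, with mm10 as the genome build per the submitters' processing notes. The sources used here name no aligner, counter, annotation or strand setting, and near-identical, overlapping or antisense genes may have reads in common. Values in the deposited table are CPM, which the authors scaled by library totals only: all values were whole multiples of 1 step within 0.01 reads, from which the totals were recovered. Of 15346 rows, 1598 were empty and 10 were repeats. A count of 0 allows up to 3 reads, for counting error only. Each sample is a mouse, and the spread behind each p-value is that between mice. Over all males and for the interaction, this spread also holds the difference between name styles within the APP groups.

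log2(CPM + 1) of 24 libraries was fitted with limma 3.58.1 (R 4.3.3, trend), with 4 group means, or 6 with APP males and females split by name style, and p-values were adjusted by Benjamini-Hochberg over 13738 genes. The script was tested on simulated data. The 44 gene lists (820 of 890 entries measured) and the members were chosen with earlier results of these data known, so no list is independent evidence of its direction. Named genes are the label checks, the 15 largest rises and falls over all males (mean of at least 1 CPM), the 8 largest in the other comparisons, and list members by p or by role; some are not reported here. Gene positions are from GENCODE vM21. Same-numbered APP and WT males are different mice, and the numbers were not treated as pairs. Alternatives covered the pseudocount, a low-value filter, scaling, a replicate block, the males alone and each library left out.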

Additional observations from a re-analysis of the deposited data

Results flagged for a closer look

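In 6 of 58 combinations of gene and group (29 named genes, in APP and in WT males), 1 library stood apart from the other 5 by a Dixon test at the 95% level. Chance gives about 1 in 20 for a single combination. The combinations share the same libraries, so they are not separate trials and 6 of 58 cannot be set against that rate. W4 was the highest of WT for 4 genes: Cst7 (8.91 CPM), Slc1a2 (886), Slc6a11 (43.8) and Mmd2 (36.1). W2 was the lowest of WT for Igfbp2 (44.5 CPM). A3172 was the highest of APP for Rpl21 (35.8 CPM). None of these 6 genes lost its call over all males when that library was left out.

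For 7 of the 29 genes the effect of genotype differed between males and females (interaction term in limma over all 24 libraries, adjusted over all genes, of which 2.12% were called higher and 4.94% lower). The log2 difference, male effect minus female effect, was -4.79 for Crym (adjusted p = 0.0025), -4.87 for Kif5a (0.012), -2.45 for Igfbp2 (0.031), -2.44 for Gpm6b (0.028), -2.33 for Slc1a2 (0.041), -2.22 for Dio2 (0.031) and -2.08 for Mmd2 (0.047). All 7 fell in APP males. WT females all have long names and WT males all short ones, so sex and name style cannot be told apart in this difference.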

How the results depend on the processing

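No named gene with a call changed direction with 1 library left out, under another pseudocount, filter or scaling, or with the replicate block. Without the 4 short-named APP males, Aqp4 (0.11), C1s1 (0.06), Cxcl1 (-0.03) and the uncalled Pianp (-2.32) did, and over all males 256 genes were lower; without the 2 long-named ones 2116 were. With the male libraries alone, 410 were higher and 837 lower over all males, 241 and 157 in A3172 and E7967 against WT, and 891 and 300 between the sets. Trimmed-mean and median-of-ratios scaling gave 1343 and 1346 higher genes in A1 to A4, 341 and 330 higher in A3172 and E7967, and 698 and 682 higher with 748 and 767 lower between the sets. The filter at 5 CPM gave 389 lower genes for the interaction. The replicate block gave 517 higher and 245 lower between the sets and moved no other count by over 1.5 times; same-numbered APP and WT males had correlations of -0.34 to 0.34, so the numbers were not taken as pairs.

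With 1 male library left out, higher and lower counts were 514 to 893 and 828 to 1589 over all males, 608 to 925 and 1680 to 2350 in A1 to A4, 12 to 953 and 16 to 470 in A3172 and E7967, 118 to 1882 and 76 to 516 between the sets, and 176 to 540 and 382 to 947 for the interaction. A lone A3172 or E7967 is assumed to vary like the other groups. Calls lost without at least 1 library over all males were those of Acta2, Aqp4, C1qb, C1qc, C1s1, C3ar1, Cavin2, Cd74, Cxcl1, Ehd2, Erdr1x, Gucy1b1, Igf2, Kdr, Kif5a, Kif5c, Pdgfrb, Pros1, Serping1, Sgk1, Slco1a4 and Ttr. The cause of these changes was not tested. The planned count tests were not run: the CPM were whole multiples of 1 step, but most columns held too few low values to check the recovered reads. The 1 CPM added before the logarithm compresses the fold changes of genes near 1 CPM. Only 2 APP males, and no WT males, have long names.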

Other observations

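Among 27 hypoxia and glycolysis genes 6 rose and 3 fell over all males. Egln3, an oxygen sensor enzyme, rose by 1.98 (adjusted p = 3.6e-05), Hif1a by 0.49 (adjusted p = 0.0033) and Slc16a3, a lactate exporter, by 0.83 (adjusted p = 0.013), while Ndrg1 fell by 0.65 on the log2 scale (adjusted p = 0.00043). Of 20 senescence and cell cycle genes 4 rose and 1 fell: Pcna, Mcm5 and Lmnb1 rose by 0.50, 0.44 and 0.51, the lysosomal galactosidase Glb1 by 0.57, and Cdkn1a, the inhibitor p21, fell by 0.80 on the log2 scale. In the complement list of 18, the genes C3, C3ar1, C1qb and C1qc were among those that rose, and C1s1, Serping1 and Clu fell; the calls of C3ar1, C1qb, C1qc, C1s1 and Serping1 were lost without at least 3 single libraries each (highest adjusted p = 0.078, 0.1, 0.092, 0.064 and 0.064). C1qb rose by 1.0 (adjusted p = 0.038), and C4b had a log2 fold change of 0.71 (adjusted p = 0.40), at 12.3 to 50.9 CPM in A1 to A4, 62.3 and 69.6 in A3172 and E7967, and 14.3 to 25.5 in WT.

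The fibroblast genes Col1a2, Slc13a4 and Igf2 fell by 0.77, 1.70 and 1.31 on the log2 scale (adjusted p = 0.0078, 0.015 and 0.019, and 0.054 for Igf2 without A2), and the other 10 of the 13 fibroblast genes were not called. Within APP males, Gbp2b, a guanylate-binding protein, was at 39.3 to 73.1 CPM in A1 to A4 and 29.9 to 46.1 in WT, and at 0.0301 and 0.123 in A3172 and E7967.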
